A study of Mus musculus with 104 samples.

Results

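The gene set described here comprises the mouse genes whose products build the spliceosome or steer it: the U2 subcomplex genes Sf3a and Sf3b (8 genes), the Snrp genes of the small nuclear ribonucleoproteins, or snRNPs (11), the serine- and arginine-rich SR protein genes Srsf and Sfrs (12), and the heterogeneous nuclear ribonucleoprotein genes Hnrnp (18). Members were chosen by name alone, by the starts of their gene symbols, and the imprinted gene Snrpn was left out. The rule gave 49 genes out of 22592 rows in one deposited table and the same 49 out of 22593 rows in the other. The rule itself uses no measured value, but it was chosen with earlier results of these data known.

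RNA of mouse embryos was sequenced with the Smart-seq2 method around gastrulation. The epiblast, the tissue that gives rise to the embryo proper, was taken at embryonic day 6.5 (E6.5), and the head at E8.5 and E9.5. The Kmt2b set held wild-type (WT) and Kmt2b-/- (KO) samples, with 3 WT and 3 KO epiblasts, 3 WT and 2 KO heads at E8.5, and 3 WT heads and 1 KO head at E9.5. Kmt2b encodes a histone H3 lysine 4 methyltransferase. The Tet1/2 set held 2 epiblasts and 2 E8.5 heads of genotype Tet1-/-;Tet2-/- (double knockout, DKO) and 2 WT heads at E8.5, and Tet1 and Tet2 encode enzymes that oxidize 5-methylcytosine. The labels give the mutant genotypes as homozygous nulls and name no Cre driver. The series design gives DBA2 fathers and C57BL/6N mothers for the embryos of the study, and does not say how the mutants were crossed. Values were the authors' FPKM, fragments scaled to transcript length and library total, which can be compared between genes, and give no read counts, so that the depth behind each value is unknown. The Tet1/2 table had 1 column per library and held, beside its 6 libraries, columns of the 3 WT epiblasts of the Kmt2b set. The Kmt2b table had 1 merged column per group. Whether replicates are separate embryos is not said by the labels, and the spread behind the p-values may therefore be technical.

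Pre-mRNA splicing removes introns in 2 chemical steps carried out by the spliceosome, which assembles anew on each intron from the U1, U2, U4, U5 and U6 snRNPs. In most snRNPs a ring of Sm proteins, encoded by Snrpb, Snrpd1, Snrpd2, Snrpd3, Snrpe, Snrpf and Snrpg, encircles the small nuclear RNA. The SF3A and SF3B complexes sit in the U2 snRNP and hold it to the branch point of the intron, SR proteins bind mostly exons and recruit the machinery to nearby splice sites, and hnRNP proteins coat the nascent transcript and often repress splice sites. These genes are active in every cell, and rapidly dividing embryonic cells are known for high levels of them.

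The libraries differed in ways that the groups did not fix. Over 7 epiblast markers the summed level was 1360.4 to 1442.3 FPKM in WT epiblasts and 2482.8 to 2541.6 in DKO epiblasts, with visceral endoderm markers summing to at most 3.1 in any epiblast library and each of the 7 epiblast markers above 1 FPKM in at least 1 library. Extraembryonic ectoderm markers (5 genes) summed to 24.3 to 28.0 FPKM in WT epiblasts and 13.7 to 17.5 in DKO epiblasts, and their part was not tested. Over 8 neural head markers the sum was 228.5 to 229.9 FPKM in WT heads and 162.6 to 212.9 in DKO heads. Over 5 blood markers the DKO heads had 4.54 and 376.6 FPKM and the WT heads at most 0.653, and over 7 heart muscle markers the WT heads had 29.3 and 188 FPKM and the DKO heads at most 8.07. The E9.5 KO library, whose column is headed with a code other than that for head, had 2407.6 FPKM over the heart muscle markers against 20.9 in WT. Of the deleted genes, Tet1 had 2.55 and 3.33 FPKM in the 2 WT heads against 1.28 and 1.30 in the 2 DKO heads, and 4.77, 6.29 and 5.03 in WT against 3.82 and 2.92 in DKO epiblasts, Tet2 was under 1 FPKM in all libraries, and Kmt2b, listed as Wbp7, was lower in KO at each stage but at 1.20 FPKM or less, and a transcript that has lost part of its exons can still be counted.

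Most of the splicing genes were among the more abundant transcripts of the Tet1/2 table. Over the 9 libraries of the Tet1/2 table the median member had a mean of 140.8 FPKM, beside 7.98 FPKM for the median of all genes kept for testing. A gene was kept when at least 2 libraries had 1 FPKM or more, which 48 of the 49 members met, and 46 of these lay above the median gene. The snRNP protein genes had the highest median (253.7 FPKM over 11 genes), and the medians of the SF3 (104.3), SR (105.7) and hnRNP genes (108.1) were close to one another. The highest means were those of the Sm genes Snrpe (977.5 FPKM) and Snrpb (804.0) and of Hnrnpf (587.4), whose product binds G-rich RNA. The lowest were Srsf12 (0.466 FPKM, not tested), Hnrnpul2 (3.25) and Hnrnpr (4.67).

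Spread within a group was small for most members. The median SD between the 3 WT epiblast libraries was 0.11 on the log2 scale, and the 2 WT head libraries lay a median of 0.08 apart with 0 of 48 members 2-fold or more apart. In the WT epiblasts 2 members differed by 2-fold or more. Hnrnpr, which encodes an hnRNP with several RNA recognition motifs, had 0.0688, 5.44 and 9.45 FPKM, so that replicate 1 was nearly without it. Sf3a2, the gene of an SF3A subunit with a zinc finger, had 1.27, 6.50 and 1.51 FPKM, with replicate 2 high.

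**Figure D1:**
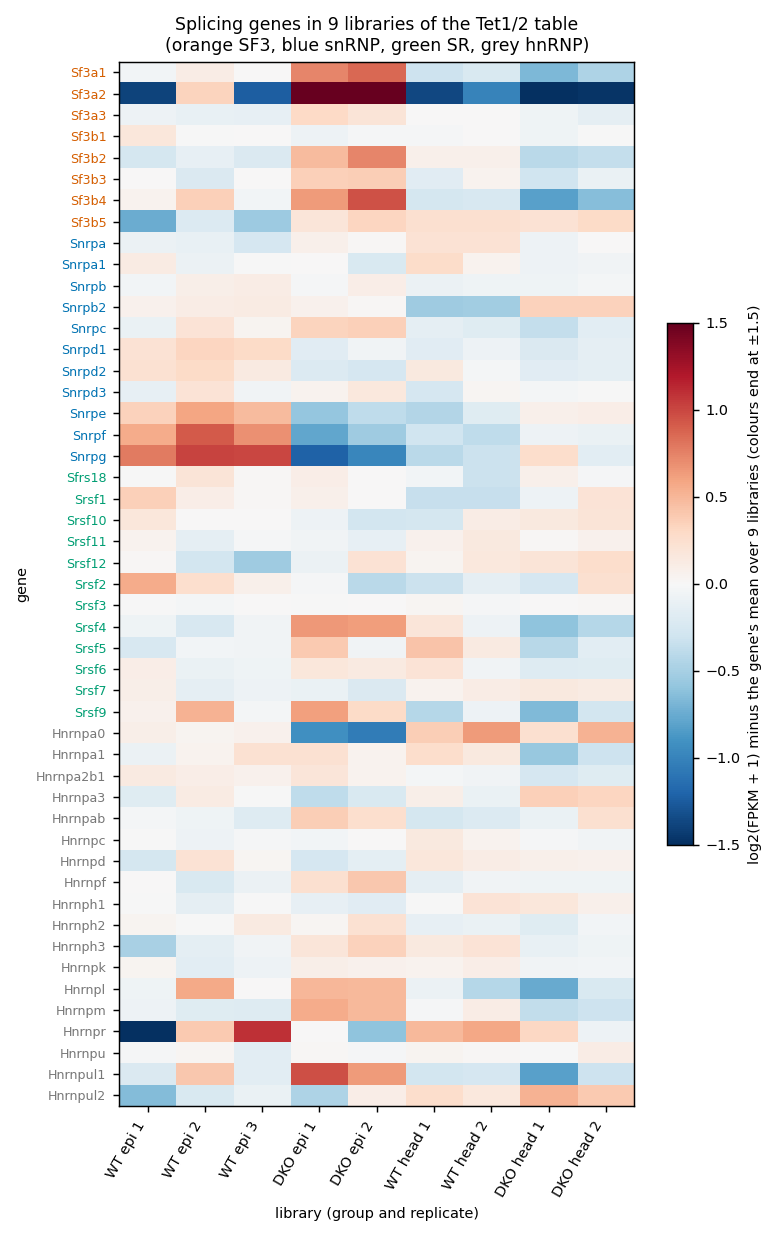
Each row is a member and each column a library of the Tet1/2 table, and colour is log2(FPKM + 1) minus the gene's mean over the 9 libraries (red higher, blue lower). Most rows are pale, while Sf3a2 is dark red in the 2 DKO epiblasts and Snrpe, Snrpf and Snrpg are red in the 3 WT epiblasts and blue in the DKO epiblasts.

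RefSeq promoter windows (GRCm38.p6, 250 bases before to 50 after a start site) matched 43 of the 49 members by symbol and gave 57 windows. Member windows held a median of 26 CpG dinucleotides, against 21 in the 10615 windows of the other genes tested and 7 in all 32851 windows. On either strand, CCGGAA, the core of ETS factor motifs, was in 49.1% of member windows, 28.2% of those of other tested genes and 14.9% of all windows. The shares in the same order were 71.9%, 64.4% and 35.7% for GGGCGG, the Sp1 box, 47.4%, 38.3% and 37.4% for CCAAT, which is the CCAAT box by name, 10.5%, 6.73% and 13.6% for TATAAA, the TATA box, and 12.3%, 10.4% and 7.15% for CACGTG, an E-box. The longer cores of NRF1 and YY1 were in 1.75% of member windows each, and in 2.21% and 3.20% of those of other tested genes. Windows of 1 gene overlap where it has several starts, and a match is a description of the letters only.

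Of the 6 members that were lower in the DKO epiblast, 5 were Sm ring genes and the other was Hnrnpa0. Comparing DKO with WT epiblasts asks how loss of Tet1 and Tet2 affects RNA before gastrulation, but the WT epiblasts come from the Kmt2b set, so genotype and sample set cannot be told apart. Of the 11 snRNP genes 5 were lower, all of the Sm ring, and 0 were higher (limma, Benjamini-Hochberg adjusted p under 0.05, two-sided, on log2 of FPKM plus 1). Over all members 19 of 48 were called in this comparison, 13 higher and 6 lower, beside a background of 35.2% of the 11264 genes tested (20.1% higher and 15.2% lower), so the share called over the set is near that of all genes. The libraries of the 2 groups did not overlap for 27 members, 17 higher and 10 lower, and for 56% of all genes. In whole-tissue RNA, fewer cells of a type and less RNA per cell cannot be told apart.

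Promoters of 3 Sm genes with the largest differences and of Snrpb2, the gene of the U2 protein B″ and the single member called in the head, are given to show the start regions of genes that moved in the same or different comparisons. Bases run 5′ to 3′ on the gene's strand, and capitals mark matches to the ETS core, the CCAAT box or the Sp1 box on either strand. On GRCm38.p6 the windows are chr1:133610231-133610530 (minus strand) for Snrpe, chr10:93589609-93589908 (minus strand) for Snrpf, chr6:86371290-86371589 (plus strand) for Snrpg and chr2:143062819-143063118 (plus strand) for Snrpb2.
Snrpe: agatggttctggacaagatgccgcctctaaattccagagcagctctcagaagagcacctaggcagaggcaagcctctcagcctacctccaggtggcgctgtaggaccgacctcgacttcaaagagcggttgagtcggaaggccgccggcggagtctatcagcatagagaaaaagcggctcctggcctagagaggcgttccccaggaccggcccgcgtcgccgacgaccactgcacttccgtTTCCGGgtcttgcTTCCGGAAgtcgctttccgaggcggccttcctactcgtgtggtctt
Snrpf: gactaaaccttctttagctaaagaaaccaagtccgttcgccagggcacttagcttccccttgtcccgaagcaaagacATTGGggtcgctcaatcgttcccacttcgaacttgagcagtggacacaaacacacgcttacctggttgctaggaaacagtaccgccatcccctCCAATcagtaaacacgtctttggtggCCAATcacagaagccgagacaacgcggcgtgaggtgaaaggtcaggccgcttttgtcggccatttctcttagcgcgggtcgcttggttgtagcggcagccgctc
Snrpg: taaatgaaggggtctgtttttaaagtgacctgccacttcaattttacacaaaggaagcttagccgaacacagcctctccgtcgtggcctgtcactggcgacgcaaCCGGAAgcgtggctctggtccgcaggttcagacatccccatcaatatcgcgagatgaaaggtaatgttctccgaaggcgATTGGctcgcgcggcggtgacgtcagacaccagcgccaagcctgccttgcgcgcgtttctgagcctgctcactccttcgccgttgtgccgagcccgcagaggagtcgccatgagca
Snrpb2: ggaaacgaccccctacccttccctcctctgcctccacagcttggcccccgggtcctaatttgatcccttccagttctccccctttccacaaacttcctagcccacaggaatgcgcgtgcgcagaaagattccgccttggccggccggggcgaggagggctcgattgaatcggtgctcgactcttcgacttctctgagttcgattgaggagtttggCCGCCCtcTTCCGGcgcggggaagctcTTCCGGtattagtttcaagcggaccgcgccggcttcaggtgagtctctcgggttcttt
CpG counts in these windows were 24 for Snrpe, 20 for Snrpf, 26 for Snrpg and 24 for Snrpb2. The ETS core was found in the windows of Snrpe, Snrpg and Snrpb2, and the CCAAT box in those of Snrpf and Snrpg, and no motif searched was found in all 4 windows. Snrpf overlaps Ccdc38 and 4933408J17Rik in the GRCm38 annotation, and without stranded counts their reads may not be separable. Ccdc38 was listed at 0.639, 0.680 and 1.12 FPKM in WT epiblasts and at 0.159 and 0.325 in DKO epiblasts. In the heads of the Tet1/2 table it had 0.0830 to 0.393 FPKM. The level of 4933408J17Rik was not looked up, and the part of the overlap was not tested.

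Snrpg, which encodes the smallest Sm protein, had 175.7, 206.4 and 205.1 FPKM in WT epiblasts, 43.4 and 51.1 in DKO epiblasts, 76.4 and 81.4 in WT heads and 122.5 and 91.3 in DKO heads. It was lower in the DKO epiblast by a log2 difference of −2.03 (SE 0.14, limma adjusted p = 0.000128), and the libraries of the 2 groups did not overlap. Snrpf, whose product forms a subcomplex with those of Snrpe and Snrpg before the ring closes, had 326.0, 420.1 and 358.2 FPKM in WT epiblasts, 128.6 and 152.4 in DKO epiblasts, 179.9 and 170.2 in WT heads and 210.2 and 207.1 in DKO heads. Its difference in the epiblast was −1.38 (SE 0.12, limma adjusted p = 0.00026), and in the heads its groups also stood apart, in the opposite order, but the call there was not made (0.25, adjusted p = 0.284). Snrpe, the third gene of that subcomplex, had 1196, 1424 and 1308 FPKM in WT epiblasts, 631 and 724 in DKO epiblasts, 692 and 828 in WT heads and 989 and 1005 in DKO heads. It differed by −0.95 in the epiblast (SE 0.10, limma adjusted p = 0.000597), with the lowest WT library well above the highest DKO library.

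The other ring genes differed less. Snrpd2 fell from 322 ± 17.0 FPKM (SD, n = 3) to 235.5 ± 6.57 (n = 2), a log2 difference of −0.45 (limma adjusted p = 0.00368). Snrpd1 fell from 579 ± 22.0 to 440 ± 25.3 FPKM, by −0.40 (limma adjusted p = 0.00376). Snrpd3, with 434.3 to 546.3 FPKM in WT and 492.1 to 530.0 in DKO epiblasts, and Snrpb, with 780.6 to 868.7 and 793.0 to 858.8, overlapped between groups and were not called (differences 0.10 and −0.01). The genes of the U1 proteins A and C, Snrpa and Snrpc, differed by 0.20 and 0.30, and those of the U2 proteins A′ and B″, Snrpa1 and Snrpb2, by −0.12 and −0.06, and none of the 4 passed the test. The 5 calls among the ring genes held under each of the 15 other settings run.

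WT heads of the 2 sets give a view of the ring genes between sets without a difference in genotype, though the tables were normalized separately. The merged WT head column of the Kmt2b table had 152.1 FPKM of Snrpg, against 76.4 and 81.4 in the WT heads of the Tet1/2 table. Snrpf had 186.2 against 179.9 and 170.2 FPKM, and Snrpe 942.8 against 692 and 828. As a ratio the gap between WT heads of the 2 sets was widest for Snrpg, and in FPKM for Snrpe, and the part of the sample set in the epiblast difference was not tested.

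**Figure D2:**
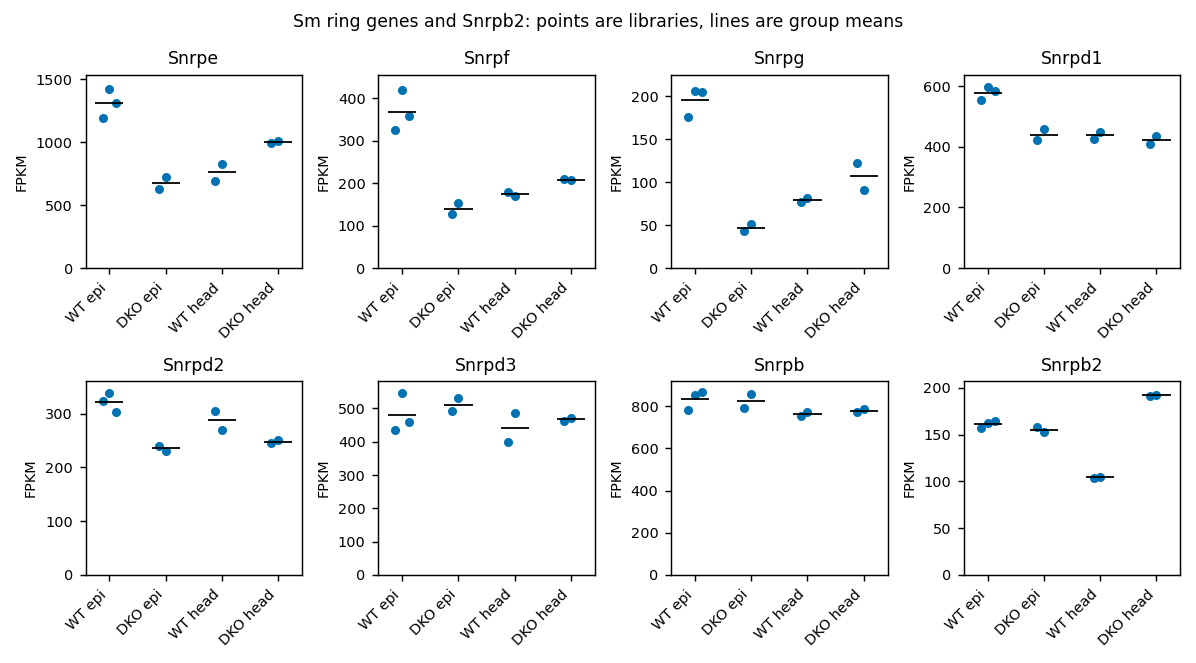
FPKM of the 7 Sm ring genes and Snrpb2 in each library (points) with group means (lines), for WT and DKO epiblasts at E6.5 and WT and DKO heads at E8.5. The group means of Snrpe, Snrpf and Snrpg are highest in the 3 WT epiblasts and lowest in the 2 DKO epiblasts, and Snrpb2 is near 104 FPKM in the WT heads and near 192 in the DKO heads.

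SF3 genes were higher in the DKO epiblast. Of the 8 SF3 genes 7 were higher and 0 lower, with a median log2 difference of 0.71, beside 0.05 for all genes tested and the background of 20.1% called higher. Sf3a2 had the largest difference of any member. It had 1.27, 6.50 and 1.51 FPKM in WT epiblasts and 77.5 and 88.3 in DKO epiblasts, then 1.31 and 1.97 in WT heads and 1.08 and 1.14 in DKO heads. The 2 DKO epiblasts thus stood apart from all 7 other libraries, with a log2 difference to the WT epiblasts of 4.58 (SE 0.45, limma adjusted p = 0.00042).

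The Sf3a2 promoter is shown because the level of this gene, near 1 FPKM in most libraries, is far below that of its partners in the same complex. The window is chr10:80798485-80798784 on the plus strand (RefSeq, GRCm38.p6), printed 5′ to 3′ with matches to the Sp1 box and the ETS core in capitals.
Sf3a2: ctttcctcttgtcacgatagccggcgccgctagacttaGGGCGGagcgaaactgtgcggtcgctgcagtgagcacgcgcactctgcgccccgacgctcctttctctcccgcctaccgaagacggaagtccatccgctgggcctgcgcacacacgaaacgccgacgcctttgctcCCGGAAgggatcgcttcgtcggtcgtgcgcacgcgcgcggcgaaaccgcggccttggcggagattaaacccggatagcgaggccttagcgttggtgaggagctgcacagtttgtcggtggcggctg
It held 41 CpG dinucleotides, against the median of 26 over member windows. The RefSeq annotation shows no gene that overlaps Sf3a2. The neighbouring gene Plekhj1, whose annotated span reaches into this promoter window, had 48.5, 56.2 and 44.9 FPKM in WT epiblasts and 48.0 and 54.0 in DKO epiblasts, so the 2 groups overlapped there. Dot1l, another nearby gene looked up, had 1.08, 2.25 and 2.32 FPKM in WT epiblasts and 4.67 and 5.26 in DKO epiblasts, without overlap. Its level in the heads was 0.915 to 1.37 FPKM. Amh, also looked up, had at most 0.0502 FPKM in any library. A link between the levels of Sf3a2 and its neighbours was not tested.

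The partners of Sf3a2 in SF3A differed by less. Sf3a1, the SF3A subunit with tandem SURP domains, had 44.8, 49.9 and 46.5 FPKM in WT epiblasts, 77.4 and 84.95 in DKO epiblasts, 37.0 and 39.2 in WT heads and 28.6 and 33.1 in DKO heads. The difference in the epiblast was 0.77 (SE 0.10, limma adjusted p = 0.00113), and the DKO heads were the lowest libraries. Sf3a3 rose from 184 ± 3.55 FPKM (SD, n = 3) to 234.8 ± 11.9 (n = 2), by 0.35 (limma adjusted p = 0.00531).

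In the SF3B complex, Sf3b2, whose product contacts the branch region, had 81.5, 90.04 and 84.7 FPKM in WT epiblasts, 137.5 and 164.2 in DKO epiblasts, 103.7 and 104.0 in WT heads and 74.0 and 76.4 in DKO heads. It differed by 0.81 in the epiblast (SE 0.09, limma adjusted p = 0.000704). Sf3b5, the gene of a small SF3B subunit, had 131.1, 191.3 and 150.4 FPKM in WT epiblasts and 250.1 and 275.7 in DKO epiblasts (0.75, limma adjusted p = 0.00502), a level that the heads of both genotypes, at 255.7 to 268.8, also had. Sf3b4, a gene of an RNA recognition motif protein, had 75.9, 93.6 and 70.8 FPKM and 113.8 and 142.8 (0.67, limma adjusted p = 0.00806), and Sf3b3 rose by 0.43 (limma adjusted p = 0.0165). Sf3b1, which encodes the large scaffold of the complex and is recurrently mutated in blood cancers, had 106.6 to 119.8 FPKM in WT and 101.4 and 105.1 in DKO epiblasts and was not called (−0.10, limma adjusted p = 0.332). The call of Sf3b3 was lost without DKO epiblast replicate 2 (adjusted p = 0.0616), and the other 6 SF3 calls held in each setting run.

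**Figure D3:**
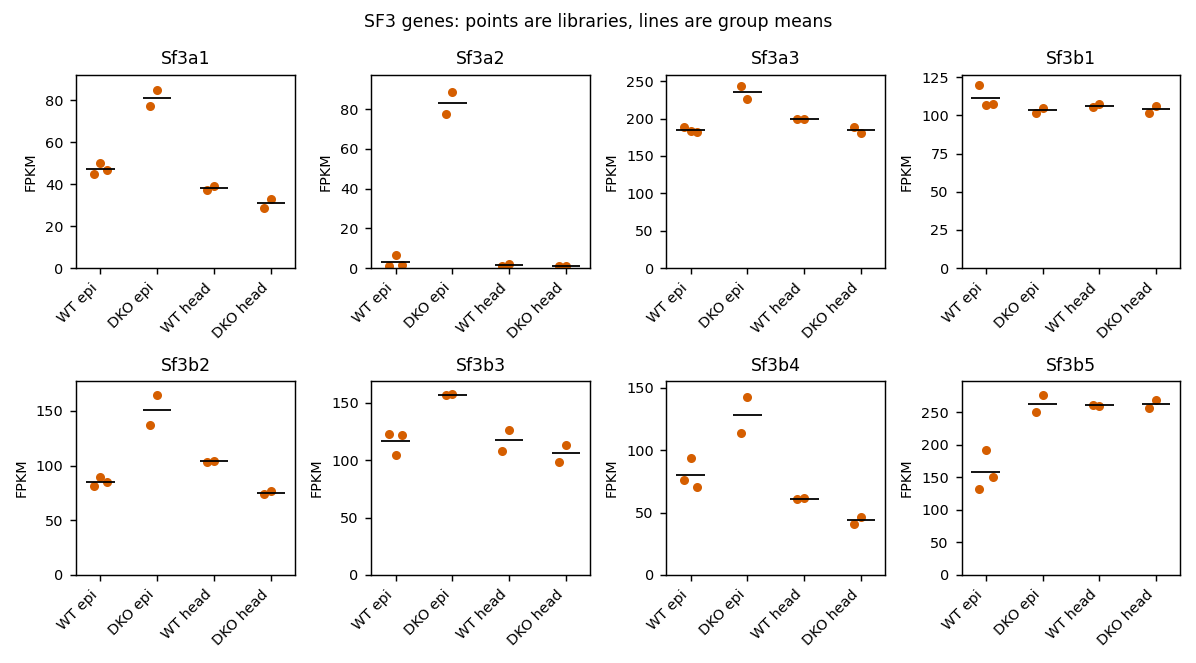
FPKM of the 8 SF3 genes in each library (points) with group means (lines), for WT and DKO epiblasts at E6.5 and WT and DKO heads at E8.5. The DKO epiblasts are above the WT epiblasts in all panels except Sf3b1, and Sf3a2 is near 80 FPKM in the DKO epiblasts and under 7 in each other library.

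Of the 11 SR genes tested, 1 was called in the DKO epiblast, beside 35.2% of all genes tested. Srsf4, which encodes a large SR protein, had 35.2, 30.9 and 35.4 FPKM in WT epiblasts, 58.4 and 57.4 in DKO epiblasts, 41.8 and 34.9 in WT heads and 23.8 and 27.1 in DKO heads. Its difference in the epiblast was 0.76 (SE 0.12, limma adjusted p = 0.00211). Srsf2, which encodes the splicing factor SC35, had 602.7, 489.9 and 432.2 FPKM in WT and 405.1 and 308.7 in DKO epiblasts, a difference of −0.51 that missed the threshold (SE 0.19, limma adjusted p = 0.0656). Srsf3, the gene of the smallest SR protein, varied least of the members, at 463.7 to 485.3 FPKM over all 9 libraries. Median-level SR genes such as Srsf1, the gene of the factor also known as ASF/SF2 (117 ± 14.7 FPKM in WT and 107 ± 4.07 in DKO epiblasts), and Srsf5 (96.7 ± 7.42 and 119 ± 26.4) were not called.

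Among the 18 hnRNP genes, 5 were higher and 1 lower in the DKO epiblast, beside 35.2% of all genes tested (20.1% higher and 15.2% lower). Hnrnpa0, a gene of the A/B family of RNA-binding proteins, had 73.9, 71.8 and 73.0 FPKM in WT epiblasts, 36.4 and 33.1 in DKO epiblasts, 90.2 and 108.9 in WT heads and 82.4 and 100.8 in DKO heads. It was lower by −1.05 (SE 0.12, limma adjusted p = 0.000611), with the DKO epiblasts far below all other libraries. Hnrnpul1, which encodes a U-like protein, had 6.31, 10.2 and 6.61 FPKM in WT epiblasts and 15.6 and 12.2 in DKO epiblasts (0.79, limma adjusted p = 0.0320). Hnrnpm rose from 156 ± 6.95 FPKM (SD, n = 3) to 249 ± 8.39 (n = 2), by 0.68 (limma adjusted p = 0.000602), and Hnrnpf, Hnrnph3 and Hnrnpab rose by 0.43, 0.49 and 0.41. Hnrnpa2b1, Hnrnpc, Hnrnpk and Hnrnpu, genes of the A2, C, K and U types, differed by 0.02 to 0.14 and were not called. The most abundant hnRNP gene was Hnrnpf, which was among those called higher. The call of Hnrnpul1 was lost with 5 of the 9 libraries left out in turn or without the filter on low values. The call of Hnrnph3 was lost without DKO epiblast replicate 2, and that of Hnrnpab without WT epiblast replicate 3 or DKO epiblast replicate 1. With the replicate number as a block, Hnrnpul1 and Hnrnpab were not called either.

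In the E8.5 head 1 of 48 members was called between DKO and WT, beside a background of 0.433% of the 10866 genes tested (0.258% higher and 0.175% lower). Snrpb2 had 103.9 and 105.2 FPKM in WT heads against 191.6 and 192.7 in DKO heads, 157.5, 162.8 and 164.6 in WT epiblasts and 158.1 and 152.7 in DKO epiblasts. The difference in the head was 0.87 (SE 0.07, limma adjusted p = 0.0111), and the libraries of each group lay within 2 FPKM of each other. The call was lost without WT head replicate 1 (adjusted p = 0.0971) or 2 (0.0785), without DKO head replicate 1 (0.186) or 2 (0.163), and without the mean trend in the variance (0.0783), with the difference at 0.86 to 0.88 throughout. At E8.5 the merged WT head column of the Kmt2b table had 117.5 FPKM, nearer to the WT heads than to the DKO heads of the Tet1/2 table. The Kmt2b KO head column at E8.5 had 156.1 FPKM. The E9.5 columns, which were scaled differently, had 218.0 in WT and 195.8 in KO. The blood and heart muscle sums that separate DKO from WT heads also moved with this comparison, and their part was not tested.

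In the head 18 of 48 members had an unadjusted p under 0.05, beside 1831 of all 10866 genes. Several SF3, SR and hnRNP genes had lower values there, none of them called: Sf3b2 differed by −0.46 (limma adjusted p = 0.136), Sf3b4 by −0.47 (0.192), Srsf4 by −0.57 (0.135) and Hnrnpa1 by −0.64 (0.104). Values of Snrpg, Snrpe and Srsf1 were higher, by 0.42, 0.40 and 0.41 (adjusted p = 0.279, 0.187 and 0.190). Libraries of DKO and WT heads did not overlap for 32 members, 12 higher and 20 lower, while 59.8% of the 11264 genes had such a gap.

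**Figure D4:**
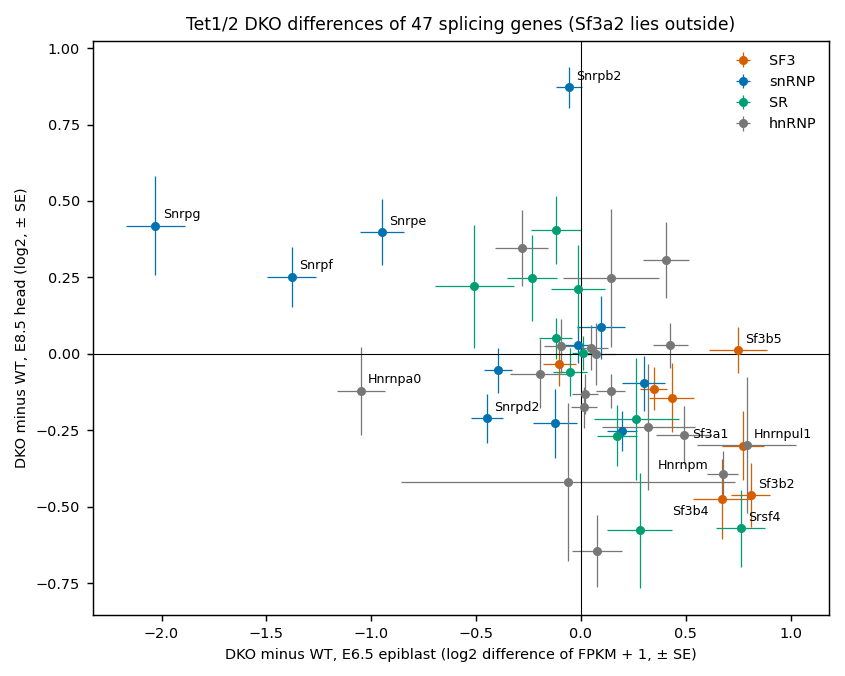
DKO minus WT difference of 47 members in the E6.5 epiblast (horizontal) and the E8.5 head (vertical), in log2 of FPKM plus 1 with standard errors, coloured by gene family, with Sf3a2 (4.58 and −0.31) outside the range. Snrpg, Snrpf and Snrpe lie at upper left, Srsf4, Sf3b2, Sf3b4 and Hnrnpm at lower right, and Snrpb2 alone is called in the head.

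The difference between the 2 tissues in the effect of genotype was tested directly. Of 48 members 21 had a DKO effect in the head unlike that in the epiblast, 7 with the head effect higher and 14 lower, beside a background of 26.4% of genes (10.9% higher and 15.5% lower). The ring genes Snrpg (2.45), Snrpf (1.63) and Snrpe (1.35) and the U2 gene Snrpb2 (0.93) had higher effects in the head on the log2 scale. Among the SF3 genes 7 of 8 had lower effects in the head, from −0.46 for Sf3a3 to −4.89 for Sf3a2, and Srsf4 (−1.33) and Hnrnpm (−1.07) did too. The interaction rests on the same WT epiblasts, so that here also genotype and sample set cannot be told apart. The count fell to 13 without WT head replicate 1 and to 12 without DKO head replicate 1, and 11 of the 21 calls, those of Sf3a1, Sf3a2, Sf3b2, Sf3b4, Snrpb2, Snrpe, Snrpf, Snrpg, Srsf4, Hnrnpa0 and Hnrnpm, held in each setting run.

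Across normal development, from WT epiblast to WT head, 12 of 48 members were called, 5 higher and 7 lower in the head, beside a background of 36.9% of genes (19.9% higher and 17.1% lower). The largest differences were those of 3 ring genes: Snrpg −1.30 (SE 0.14, limma adjusted p = 0.00027), Snrpf −1.06 (0.000285) and Snrpe −0.79 (0.000714). Snrpb2 fell from 162 ± 3.69 FPKM (SD, n = 3) to 105 ± 0.923 (n = 2), by −0.62 (limma adjusted p = 0.000211), and Snrpd1 by −0.40 (0.00244). Sf3b5 rose by 0.74 (limma adjusted p = 0.00417) and Snrpa, the gene of the U1 A protein, by 0.37 (0.00511), from 228 ± 14.0 to 293 ± 0.766 FPKM. These 7 calls held in each setting run, while those of Srsf1 (−0.50), Sf3a1 (−0.30), Hnrnpa0 (0.44), Hnrnph3 (0.41) and Sf3b2 (0.28) did not. WT head replicate 2 was the library with 188 FPKM of heart muscle markers, and the part of tissue makeup was not tested. Tissue, day and sample set change together here. In the Kmt2b table, where both WT columns belong to 1 set, Snrpf, Snrpe and Snrpg were also lower in the E8.5 head than in the epiblast, by −0.98, −0.47 and −0.33, and the WT epiblasts of the 2 comparisons are the same samples.

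From DKO epiblast to DKO head, 24 of 48 members were called, 7 higher and 17 lower, beside a background of 49.7% of genes (23.3% higher and 26.4% lower). Here 6 of 8 SF3 genes were lower and 0 higher: Sf3a2 fell by 5.31 on the log2 scale (SE 0.18, limma adjusted p = 0.000215), Sf3b4 by 1.52, Sf3a1 by 1.37, Sf3b2 by 0.99, Sf3b3 by 0.57 and Sf3a3 by 0.35. Hnrnpul1 fell by 1.37, Srsf4 by 1.16, Srsf9 by 0.92, Hnrnpl, the gene of a CA-repeat-binding hnRNP, by 0.98, Hnrnpm by 0.87 and Snrpc by 0.60. Hnrnpa0 rose by 1.37 (SE 0.14, limma adjusted p = 0.00149), Snrpg by 1.15 (0.00345), Hnrnpa3 by 0.64 (0.00906), Snrpf by 0.57 and Snrpe by 0.56. Snrpe, Snrpf and Snrpg were thus higher in the head than in the epiblast in DKO and lower in WT, and the interaction above tested that difference, while Snrpd1, Snrpb and Snrpd3 had differences below 0 in both genotypes. Of the 24 calls 11, those of Sf3a1, Sf3a2, Sf3b2, Sf3b4, Snrpc, Snrpf, Snrpg, Srsf4, Hnrnpa0, Hnrnpm and Hnrnpul1, held in each setting run. DKO head replicate 1 was the library with 376.6 FPKM of blood markers, and the part of tissue makeup was not tested.

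The other genes of the splicing machinery, 106 genes in 6 lists, gave counts of a similar kind. Snrpn, left out of the members, is counted here in the list of other splicing regulators. In the DKO epiblast 49 of 106 were called, 35 higher and 14 lower, with a median log2 difference of 0.17, beside 35.2% of all genes (20.1% higher and 15.2% lower) and a median of 0.05. The branch point and 3′ splice site factors had 5 higher and 1 lower of 10: Sf1, which encodes the branch point binding protein, had 21.2, 33.8 and 23.1 FPKM in WT and 99.1 and 97.5 in DKO epiblasts (1.91, SE 0.18, limma adjusted p = 0.000357), and U2af2, the gene of the polypyrimidine tract binder, rose by 1.33 (0.00781). In the Prp19 complex and catalytic step list 9 were higher and 3 lower of 19, with Cwc22, which recruits a core protein of the exon junction complex, at 1.77 and the helicase gene Dhx38 at 1.06. In the list of other snRNP genes 7 were higher and 2 lower of 19, with the U1 gene Snrnp70 at 1.03 and the U11/U12 gene Snrnp48 at −0.70. The snRNP assembly list had 6 higher and 1 lower of 12, with Smn1, which loads Sm proteins onto RNA, at 0.88 and Gemin5 at 0.73.

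The LSm genes are relatives of the Sm genes, and some of their products ring the U6 RNA. In the DKO epiblast 1 was higher and 3 lower of 11, beside 20.1% higher and 15.2% lower of all genes tested. Lsm5 had 70.5, 70.4 and 68.9 FPKM in WT epiblasts, 25.2 and 18.8 in DKO epiblasts, 30.1 and 23.8 in WT heads and 34.6 and 33.5 in DKO heads. It was lower by −1.64 (SE 0.14, limma adjusted p = 0.000308), with the WT epiblasts above all other libraries as for the 3 ring genes, and Lsm6 by −0.38. Among the 35 other splicing regulators 7 were higher and 4 lower, with Srrm1 at 1.06 and Srrm2, genes of large SR-related proteins, at 0.83. In the head comparison 0 of 105 were called by limma, beside 0.433% of all genes, and 24 had an unadjusted p under 0.05, beside 1831 of all 10866 genes. From WT epiblast to WT head 35 of 106 were called, 17 higher and 18 lower, beside 36.9% of all genes. From DKO epiblast to DKO head 59 of 105 were called, 20 higher and 39 lower, beside 49.7%, and in the test between tissues 37 of 106, 9 higher and 28 lower, beside 26.4%.

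Between Kmt2b KO and WT, at most 3 of 48 members were 2-fold or more apart at any stage, beside 1.7% to 8.26% of all genes kept. With 1 column per group these differences carry no error, no test and no replicate check. In the E6.5 epiblast 1 of 48 members was past 2-fold, beside 1.7% of the 11073 genes kept (1.07% higher and 0.623% lower). Sf3a2 had 3.70 FPKM in the WT and 27.4 in the KO column, a log2 difference of 2.59, against an SD of 0.96 between the WT epiblast libraries. The WT column of this comparison merges the same 3 epiblasts that were set against the DKO epiblasts. Srsf9, whose product is a short SR protein, had 54.5 and 107.1 FPKM, just under 2-fold (0.96). The family medians were 0.16 for SF3, −0.18 for snRNP, 0.15 for SR and 0.17 for hnRNP genes, beside −0.02 for all genes kept. Of the 48 differences, 30 lay within 2 SD of the WT libraries. That count was not made over all genes, so it does not show whether the members stand apart.

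Among the 105 other splicing genes kept, 6 were higher and 1 lower by 2-fold in the Kmt2b KO epiblast. Of all 11073 genes kept, 1.07% were higher and 0.623% lower. Srrm2 had 12.3 FPKM in WT and 37.4 in KO (1.53), Snrnp70 22.1 and 59.6 (1.39), Srrm1 24.1 and 52.9 (1.10), Sf1 26.0 and 56.6 (1.09), Pcbp1, the gene of a poly(C) binding protein, differed by 1.08, and U2af2 had 8.96 and 19.8 FPKM (1.06). Mbnl1, a regulator of developmental splicing, had 3.96 and 0.927 (−1.36). For Sf3a2, Sf1, U2af2, Snrnp70, Srrm1 and Srrm2 values against WT epiblasts are given above for both mutants, and the 2 comparisons share their WT samples.

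In the E8.5 head 1 of 48 members was past 2-fold between Kmt2b KO and WT, beside 4.73% of genes (2.22% higher and 2.51% lower), and that member rests on a listed 0. Hnrnpd, which encodes the AU-rich element binding protein AUF1, is listed at 0 in the WT head column, while it had 22.9 FPKM in the KO head, 17.6 and 22.2 in the WT and KO epiblasts and 53.5 and 45.2 in the E9.5 heads. The WT heads of the Tet1/2 table had 19.8 and 19.0 FPKM. No fold is drawn from this value. Hnrnpd and the left-out gene Snrpn were the 2 genes kept that are listed at 0 in that column and had 5 FPKM or more in each of the other 5 columns. Without the 0 the count was 0, and the largest remaining differences were those of Srsf9 (0.76), Hnrnpl (0.61) and Sfrs18 (0.57). Between these 2 columns 4 of 7 epiblast markers were 2-fold or more higher in KO, and 3 of 8 neural head markers were lower. Blood markers summed to 98.1 FPKM in WT and 5.03 in KO, and the part of tissue makeup was not tested. Srsf12 was the other member listed at 0 in a single column, WT epiblast replicate 3, and it had at most 0.735 FPKM in the other 8 libraries. A gene outside the set, Eftud2, which encodes a U5 GTPase, is listed at 0 in the KO head column and in WT head replicate 1 of the Tet1/2 table, and had 58.97 to 156.2 FPKM in all other columns.

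In the E9.5 head 3 of 48 members were higher in KO by 2-fold and 0 lower, beside 8.26% of genes in either direction (4.7% higher and 3.57% lower). Sf3b4 had 8.17 FPKM in WT and 33.3 in KO (1.90), Snrpc 38.8 and 87.5 (1.15) and Snrpa 117.0 and 245.4 (1.06). All 8 SF3 differences were above 0, with a median of 0.39, beside 0.03 for all genes kept, while 5 of 11 snRNP genes were above 0. The share of all genes above 0 was not counted. With all columns quantile normalized together 1 member was past 2-fold, Sf3b4 at 1.85, and Snrpc and Snrpa had 0.93 and 0.96. In that setting the median over the 48 members was 0.02, against 0.10 as deposited, and the SF3 genes were not counted apart. The KO column is 1 library, and 6 of the 7 heart muscle markers were 2-fold or more higher in it. Markers of other types were 2-fold or more lower in it, 3 of 4 for neurons (summed level 56.9 FPKM in WT and 16.9 in KO), 2 of 5 for blood (15766 and 5862) and 2 of 5 for neural crest and mesenchyme (29.6 and 16.6), and the part of tissue makeup was not tested. WT heads at E9.5 and E8.5 differed by 2-fold or more for 13 of 48 members, 6 higher (1 of them Hnrnpd through its listed 0) and 7 lower at E9.5, beside 971 higher and 1143 lower of all 11073 genes, and these columns were scaled differently.

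**Figure D5:**
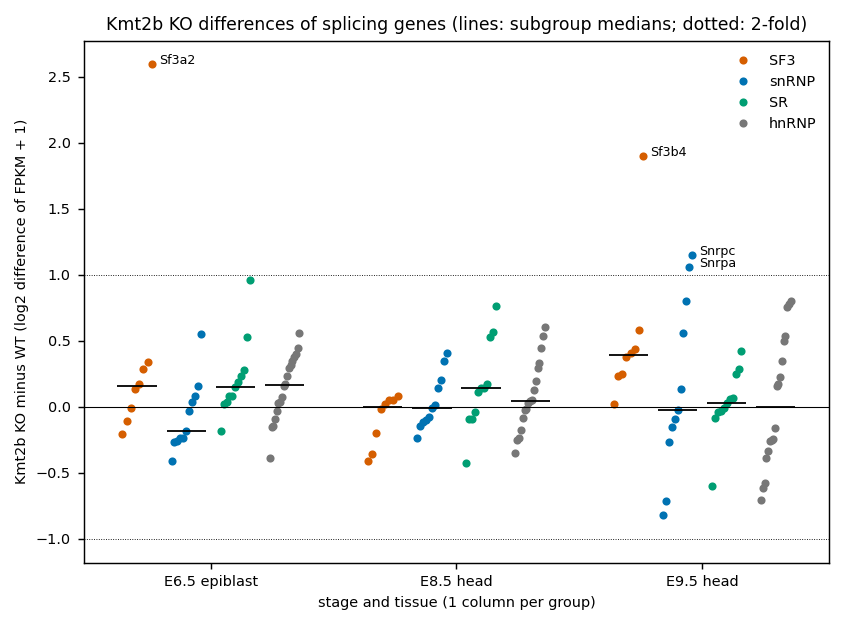
Kmt2b KO minus WT difference in log2 of FPKM plus 1 for each member, by stage and gene family (points), with family medians (lines) and 2-fold limits (dotted). Hnrnpd at E8.5 is not drawn because its WT value is listed at 0, and Sf3a2 at E6.5 and Sf3b4, Snrpc and Snrpa at E9.5 lie above the upper limit.

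Between stages, 1 member was past 2-fold in WT, Hnrnpd through its listed 0, beside 14.2% of genes (7.18% higher and 7.01% lower). In KO 1 member was past 2-fold, Sf3a2, which had 27.4 FPKM in the epiblast and 2.54 in the head (−3.00), beside 13.8% of genes (6.89% higher and 6.86% lower). Sf3a2 was thus higher in the epiblast than in the head in both mutants, at 27.4 and 2.54 FPKM without Kmt2b and at 77.5 to 88.3 and 1.08 to 1.14 without Tet1 and Tet2, while in WT it had 3.70 FPKM in both columns of the Kmt2b table.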

How the data were processed

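RNA was measured in mouse epiblasts and embryo heads. The FPKM values were made and deposited by the authors, with TopHat2 (2.0.11) and Cufflinks (2.0.2) as tools and mm9 as the genome build, per the submitters' processing notes. After sorting, the 9 Tet1/2 columns used differ rank by rank by at most 0.208% and the E6.5 and E8.5 columns of the Kmt2b table by at most 0.507%, as quantile normalization leaves them, while the E9.5 columns differ by 72.3% (WT) and 41.1% (KO). Total FPKM per column was 451779 to 505676 and 459560 to 459595, and 2 columns of no listed sample were not used. Groups came from the sample labels, and columns were matched to samples by name. Of the Tet1/2 columns, 3 bear the names of WT epiblasts of the Kmt2b set.

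Values were taken as log2(FPKM + 1), which understates the change of low genes. Genes with 1 FPKM or more in 2 columns were kept, small RNA genes were dropped, and so were 27 rows whose symbols had become dates. The Tet1/2 table was analysed in R 4.3.3 using limma 3.58.1, where eBayes took a mean trend and two-sided p-values were adjusted over all genes by Benjamini-Hochberg (threshold 0.05). The head comparison and the DKO course used 6 libraries, and the other comparisons 9. The fit was tested on simulated data. The planned Kmt2b values have no test, since a group is 1 column, and 2-fold differences were counted. Alternatives were pseudocounts of 0.1 and 5, other filters, no trend, a replicate block, another set of libraries, quantile normalization and leaving out each library. The members, by a rule on gene symbols, and the lists were chosen with earlier results of these data known. Members are named by being called in a Tet1/2 contrast, past 2-fold in a Kmt2b contrast, listed at 0, highest, lowest or near a family median, and other genes by the largest calls of each list. Pcbp1, Mbnl1 and Eftud2 were named after their values were seen. Same-numbered libraries had correlations of 0.004 to 0.193 in their deviations, so the numbers do not pair them. CpG methylation was not analysed here.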

Additional observations from a re-analysis of the deposited data

Results flagged for a closer look

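For 21 members the DKO minus WT difference in the head differed from that in the epiblast in a limma test of the difference itself (adjusted p under 0.05, log2 scale, head effect minus epiblast effect), beside 26.4% of all genes tested. The head effect was lower for Sf3a2 (−4.89), Srsf4 (−1.33), Sf3b2 (−1.27), Sf3b4 (−1.15), Sf3a1 (−1.07), Hnrnpm (−1.07), Srsf5 (−0.86), Hnrnph3 (−0.76), Sf3b5 (−0.74), Hnrnpa1 (−0.72), Sf3b3 (−0.58), Sf3a3 (−0.46), Snrpa (−0.45) and Hnrnpf (−0.40). It was higher for Snrpd1 (0.34), Hnrnpa3 (0.63), Snrpb2 (0.93), Hnrnpa0 (0.93), Snrpe (1.35), Snrpf (1.63) and Snrpg (2.45). The WT epiblasts belong to the other sample set, so genotype and set cannot be told apart in these values.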

How the results depend on the processing

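Of 101 alternative counts of members, 83 were within 1.5 times the reported count and 18 were not, and of 1143 alternative values for single members 987 kept their direction and call or moved little, 142 kept their direction but lost the call, 14 moved and 0 reversed. Leaving out each library gave 0 to 2 members called in the head (reported: 1), 11 to 26 from DKO epiblast to DKO head (24), 7 to 15 from WT epiblast to WT head (12), 17 to 20 in the DKO epiblast (19) and 12 to 22 in the test between tissues (21). Without a trend 0 members were called in the head. In the Kmt2b set the count past 2-fold was 2 at E6.5 with quantile normalization of all columns, and also 2 against the mean of the WT epiblasts of the Tet1/2 table without WT epiblast replicate 2. It was 0 at E8.5 without genes listed at 0, and 1 at E9.5 with quantile normalization. For the WT course it was 2 with quantile normalization and 0 without genes listed at 0, and for the KO course 2 with a pseudocount of 0.1. The cause was not tested, except that fewer genes or samples enter some fits. With the replicate number as a block, 1 member was called in the head, 24 in the DKO course, 10 in the WT course, 17 in the DKO epiblast (without Hnrnpab and Hnrnpul1) and 15 in the test between tissues, although the numbers were not found to pair the libraries. FPKM carry no counts, so what depth limits is unknown.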
